A study of Mus musculus with 12 samples.

Results

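In regulatory T cells, 8 genes of the transcriptional response to T cell receptor signals were followed: the nuclear receptor genes Nr4a1, Nr4a2 and Nr4a3, the zinc finger factor genes Egr1, Egr2 and Egr3, and the genes of the Egr corepressors, Nab1 and Nab2. They were chosen by name, and all 8 had a row among the 19505 genes of the array table. The cells were CD4+ CD8- CD25+ CD45RBlo regulatory T cells sorted from the lymph nodes of female mice aged 4 to 8 weeks, 1 mouse per array. Of the mice, 6 were NOD, a strain that develops autoimmune diabetes, and 6 were NOD.Drak2-/-, the same background with the gene of the kinase Drak2 (Stk17b) inactivated. The sources used here do not give how the allele was made or which strain chromosome 1 around it comes from. Values are log2 expression from the deposited table, for which RMA is named, and a difference is NOD.Drak2-/- minus NOD.

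Nr4a and Egr genes are among the first to be transcribed when a T cell receptor is engaged. Egr induction runs through ERK signalling to serum response factor and its partners, and Nr4a induction depends largely on calcium, MEF2 and CREB. In regulatory T cells the Nr4a receptors help to maintain Foxp3 expression, and Egr2 and Egr3 are known as brakes on T cell activation. Nab1 and Nab2 bind Egr1, Egr2 and Egr3 and repress their activity, and Nab2 is itself an Egr target, which closes a feedback loop. Drak2 is known to dampen signals from the same receptor, so the comparison asks whether these readouts of signal differ when it is lost.

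None of the 8 genes passed the test of genotype. In limma, with Benjamini-Hochberg adjustment over all 19505 genes and a threshold of 0.05, 0 of 8 passed, beside 4 of all genes (0.0205%), of which 3 were higher (0.0154%) and 1 lower (0.00513%) in NOD.Drak2-/-. The smallest adjusted p among the 8 was 0.469. At an unadjusted p under 0.05 there was 1 of 8, Nr4a2, beside 9.43% of all genes. Over 25 alternatives, Nr4a2 was under this level in 25, Nab1 in 5, Nab2 in 4 and Nr4a3 in 1. The count reached 3 of 8 without NOD replicate 6 or without NOD.Drak2-/- replicate 4. The share of all genes in those settings is not given here, so these counts are not read as a result about the members. For 0 of 8 genes did the 6 values of one genotype lie wholly apart from the 6 of the other, beside 0.513% of all genes. The difference was negative for 6 of 8 genes, beside 54.1% of all genes, with a median of -0.05 over the 8 and -0.02 over all. Centring each array on its median moved the median of all genes to 0.05 and left 3 of 8 negative, the Nr4a genes, beside 40.0% of all genes. Quantile normalization left 6 of 8 negative, beside 51.1% of all genes. All 8 genes, by the row used for each, lay above their own array's brightest background row (probes with no target in the genome) in 12 of 12 arrays. No value of these member rows is therefore a bound, while some other rows named below are in the background range.

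**Figure D1:**
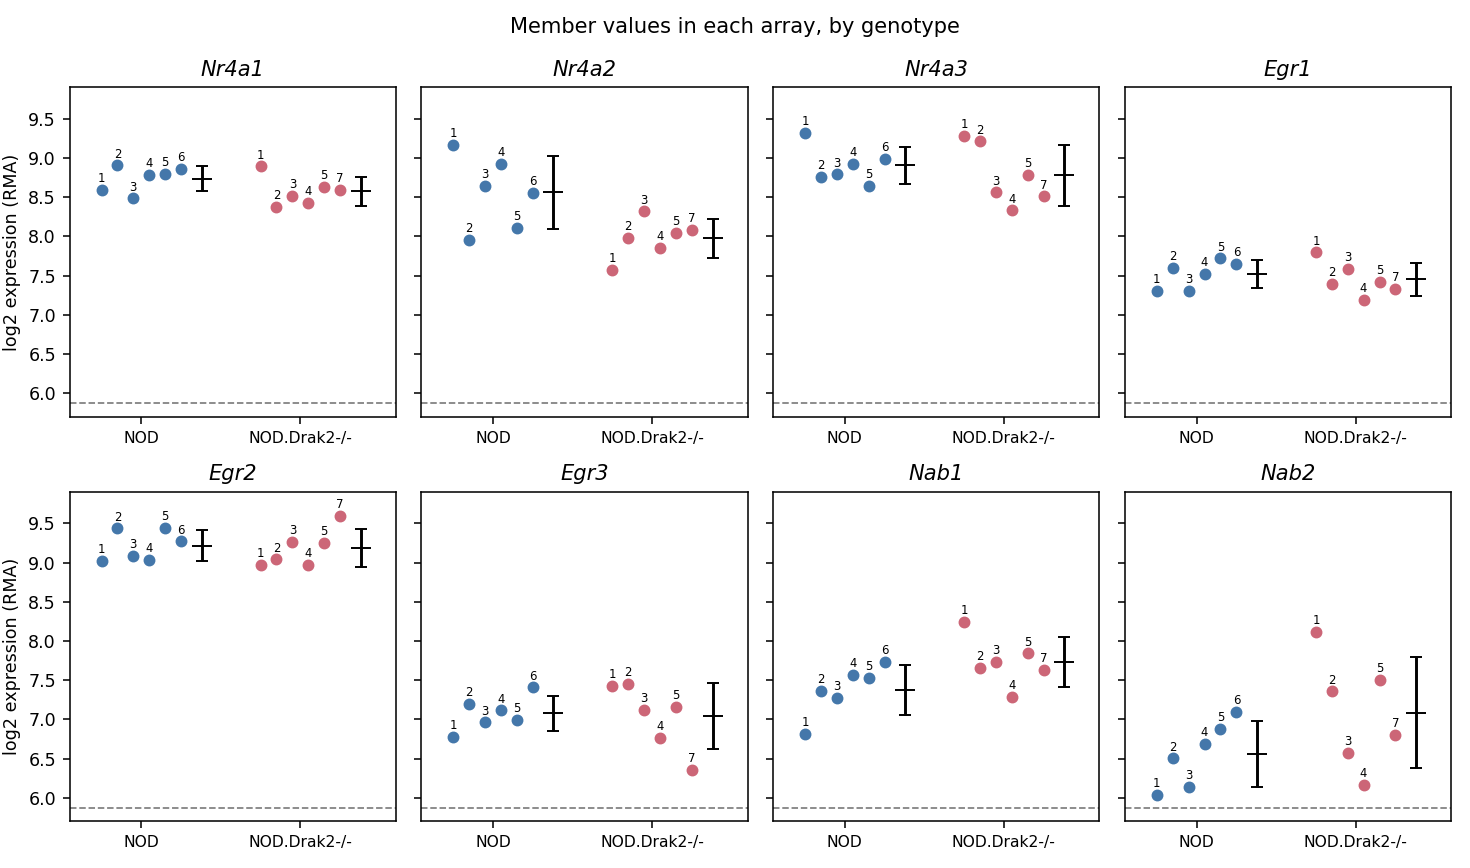
Log2 expression of the 8 genes in each array, by genotype, with replicate numbers beside the points, mean and SD (n = 6 per genotype) beside each group, and the mean of the brightest background row (5.87) as a dashed line. Every panel shows overlapping groups, with the NOD.Drak2-/- points shifted down most for Nr4a2 and up most for Nab2.

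Array medians ran from 5.22 to 5.34 in NOD and from 5.18 to 5.24 in NOD.Drak2-/-. Pairwise correlations over genes, which are no replicates, were 0.968 to 0.991. NOD.Drak2-/- replicates 1, 2, 5 and 7 had medians of 5.18, below every NOD array. Their hybridization control means of 9.87 to 10.71 lay above every NOD array (highest 9.72). Replicates 3 and 4 of NOD.Drak2-/- did not share this (medians 5.24 and 5.24, controls 8.95 and 9.22). Genotype and these array measures are thus only partly told apart, and no alternative used the controls as a covariate. Among the 8 genes the largest r with the controls were those of Nr4a3 (0.66, permutation adjusted p = 0.105) and Nab2 (0.62, permutation adjusted p = 0.14). The row of Stk17b read 10.21 to 10.80 in NOD and 9.97 to 10.36 in NOD.Drak2-/- (difference -0.27, adjusted p = 0.517 in limma), and since the place of its probes relative to the inactivated part is unknown here, this gene does not check the labels. Of 11 markers of T cells and regulatory T cells 10 had a row and 9 were above background, among them Cd4, Cd3e, Ctla4 and Ikzf2. Il2ra, the gene of CD25, was in the background range in both genotypes (4.82 and 5.00), and no row carried the name Foxp3. Of the markers of other cells, above background were 1 of 9 B cell genes (Cd79b), 2 of 12 myeloid and dendritic genes (Cybb and Cst3), 2 of 6 CD8 T and NK genes (Cd8b1 and Eomes), and 3 of 7 erythroid and stromal genes (Pecam1, Alas2 and Col1a1). None of these lists had a gene past the threshold in limma, and Cd79b differed by 0.48 (adjusted p = 0.436) and Cybb by 0.76 (adjusted p = 0.506). The lists did not follow these 2 genes as a whole, and Cst3 differed by 0.00. Of the 9 B cell genes 6 differences were negative and 3 positive (median -0.11). Of the 12 myeloid and dendritic genes 4 were negative and 8 positive (median 0.08), beside 54.1% negative over all genes. The highest background row of an array ran from 5.51 to 6.06 in NOD and reached 6.52 and 6.77 in NOD.Drak2-/- replicates 1 and 2, which therefore stand apart in background. Values without these 2 arrays are given below with each gene.

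Among the Nr4a genes, Nr4a2 was the member with the largest difference. Nr4a2, also known as Nurr1, read 7.95, 8.60 and 9.17 in NOD (lowest, median and highest of 6 arrays) and 7.57, 8.01 and 8.32 in NOD.Drak2-/-. All 6 NOD.Drak2-/- arrays lay below the NOD mean and 2 of them below the lowest NOD array, and the groups overlapped because NOD replicates 2 and 5 were low (7.95 and 8.10). The means were 8.56 ± 0.47 and 7.98 ± 0.25 (SD, n = 6 per genotype), a difference of -0.58 (SE 0.19, 95% interval -0.99 to -0.18), or 0.667 of the NOD level on the linear scale. In limma the adjusted p was 0.469, so the call fails over all genes, and regrouping the arrays gave an exact two-sided permutation p of 0.026. By unadjusted p, Nr4a2 ranked 292 of 19505 genes. Its difference ran from -0.70 to -0.46 when each array was left out in turn and from -0.63 to -0.48 under the other alternatives, the latter without NOD.Drak2-/- replicates 1 and 2.

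Nr4a1, which encodes Nur77, the receptor used in reporter mice as a gauge of T cell receptor signal strength, differed less. It read 8.49, 8.79 and 8.90 in NOD and 8.38, 8.56 and 8.89 in NOD.Drak2-/- (lowest, median, highest). Of the NOD.Drak2-/- arrays 5 of 6 lay below the NOD mean, and replicate 1 alone lay above it. The difference was -0.16 (95% interval -0.41 to 0.08, adjusted p = 0.661 in limma), and -0.19 without NOD.Drak2-/- replicates 1 and 2. Nr4a3, the gene of the third receptor, Nor1, read 8.64, 8.86 and 9.32 in NOD and 8.33, 8.67 and 9.28 in NOD.Drak2-/-. The difference was -0.12 (95% interval -0.49 to 0.24, adjusted p = 0.833 in limma). Its NOD.Drak2-/- arrays fell into high readings in replicates 1 and 2 (9.28 and 9.21) and lower ones in the other 4 (8.33 to 8.78). Without replicates 1 and 2, the arrays with the brightest background rows, the Nr4a3 difference was -0.36 (adjusted p = 0.603 in limma), a setting chosen once these values were known.

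Whether Nr4a2 moved apart from its relatives was tested within arrays, a test chosen after its values were seen. The log2 difference of Nr4a1 minus Nr4a2 averaged 0.18 in NOD and 0.60 in NOD.Drak2-/-, a shift of 0.42 (two-sided exact permutation p = 0.175, adjusted p = 0.614 over 7 pairs of related members). For Nr4a2 minus Nr4a3 the shift was -0.46 (exact permutation p = 0.11, adjusted p = 0.614). The 3 Nr4a genes were therefore not shown to respond differently from each other. For the Egr and Nab pairs the shifts were between -0.18 and -0.00, with adjusted p-values from 0.854 to 0.987 in the same exact permutation tests.

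The RefSeq promoter windows of the Nr4a genes, 300 bases that end just past the start (GRCm38.p6), are shown because the core of the cyclic AMP response element through which CREB acts recurs in them. The core, TGACG on either strand, was found 4 times in each of the 3 windows, while 20.8% of all 32851 windows held it at all and 1.03% held it 3 or more times. These windows are also rich in G and C (72.3% in Nr4a1, 81.7% in Nr4a2 and 64.7% in Nr4a3). The median over all windows is 52.7%, and the shares above are not matched for this. Capitals mark these cores and, in Nr4a1, also 1 Egr site (GCGTGGGCG or GCGGGGGCG on either strand, in 3.47% of windows), which overlaps no core.
Nr4a1, chr15:101266596-101266895, + strand: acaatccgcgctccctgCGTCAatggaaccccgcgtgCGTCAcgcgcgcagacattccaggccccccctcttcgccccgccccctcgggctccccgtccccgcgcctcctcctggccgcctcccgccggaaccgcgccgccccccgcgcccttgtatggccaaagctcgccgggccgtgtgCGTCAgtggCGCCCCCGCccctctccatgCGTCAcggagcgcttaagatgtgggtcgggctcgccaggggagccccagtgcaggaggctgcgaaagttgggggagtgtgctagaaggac
Nr4a2, chr2:57123954-57124253, - strand: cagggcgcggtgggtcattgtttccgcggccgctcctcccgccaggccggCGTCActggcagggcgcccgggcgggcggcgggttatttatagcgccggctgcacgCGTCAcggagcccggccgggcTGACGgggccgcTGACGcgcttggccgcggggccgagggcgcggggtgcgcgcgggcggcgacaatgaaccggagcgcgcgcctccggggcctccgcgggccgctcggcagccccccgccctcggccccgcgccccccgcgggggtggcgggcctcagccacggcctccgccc
Nr4a3, chr4:48045055-48045354, + strand: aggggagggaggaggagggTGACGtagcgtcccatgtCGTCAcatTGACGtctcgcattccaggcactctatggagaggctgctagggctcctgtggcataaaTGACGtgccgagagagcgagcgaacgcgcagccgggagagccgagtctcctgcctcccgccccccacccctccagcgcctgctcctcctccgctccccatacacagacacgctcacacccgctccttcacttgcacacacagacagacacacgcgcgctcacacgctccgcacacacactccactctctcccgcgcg
The core was added to the search after the windows had been seen. The full palindrome TGACGTCA, in 1.79% of all windows, and the Nr4a monomer site AAAGGTCA, in 1.51%, were in none of the 10 windows of the 6 members that had one.

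The 3 Egr genes had small differences over all 12 arrays, and that of Egr3 depended on the arrays with bright background rows. Egr1, the family's immediate early founder, read 7.31, 7.56 and 7.72 in NOD and 7.20, 7.41 and 7.80 in NOD.Drak2-/- (lowest, median, highest). Its difference was -0.06 (95% interval -0.32 to 0.20, adjusted p = 0.888 in limma). Egr2 read 9.02, 9.18 and 9.44 in NOD and 8.97, 9.15 and 9.60 in NOD.Drak2-/-. Its difference was -0.03 (95% interval -0.31 to 0.25, adjusted p = 0.951 in limma). Without NOD.Drak2-/- replicates 1 and 2, Egr1 differed by -0.13 and Egr2 by 0.057. For both genes the ranges of the genotypes overlapped over most of their length. Median centring turned both signs (0.0033 and 0.034), so neither has a settled direction.

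Egr3 had 3 rows on the array, of which the brightest was used. It read 6.77, 7.05 and 7.41 in NOD and 6.36, 7.14 and 7.45 in NOD.Drak2-/-. The difference was -0.03 (95% interval -0.40 to 0.35, adjusted p = 0.967 in limma), and its sign is unsettled, since median centring gave 0.039. The 3 rows disagreed in sign, with differences of -0.03, -0.06 and 0.13 from brightest to dimmest. By their identifiers the row used and the next brightest are unmapped. The dimmest, the one placed on chromosome 14, averaged 5.81 in NOD and 5.95 in NOD.Drak2-/-, close to the mean of the brightest background row (5.87). The Egr3 results given here therefore rest on an unmapped row. The spread of Egr3 was 0.22 (SD) in NOD and 0.42 in NOD.Drak2-/-, where replicates 1 and 2 (7.43 and 7.45) were the highest and replicate 7 (6.36) the lowest. Without replicates 1 and 2 the Egr3 difference was -0.22 (adjusted p = 0.752 in limma), and with the brightest background row as a covariate -0.20 (adjusted p = 0.704 in limma).

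One Egr2 window of 5 is shown because it holds the CArG box, the site of serum response factor, on which ERK signals converge. The box (CC, then any run of A and T letters of fixed length, then GG) was in 1.63% of all windows and in 4 of the 5 Egr2 windows. The windows starting at 67537619, 67537620 and 67537680 overlap and hold the same box, so these are not 4 separate boxes. Here it lies at -72 to -63, counted with the start base as 0. Capitals mark the box and 2 cores of the cyclic AMP response element, which do not overlap it.
Egr2, chr10:67537619-67537918, + strand: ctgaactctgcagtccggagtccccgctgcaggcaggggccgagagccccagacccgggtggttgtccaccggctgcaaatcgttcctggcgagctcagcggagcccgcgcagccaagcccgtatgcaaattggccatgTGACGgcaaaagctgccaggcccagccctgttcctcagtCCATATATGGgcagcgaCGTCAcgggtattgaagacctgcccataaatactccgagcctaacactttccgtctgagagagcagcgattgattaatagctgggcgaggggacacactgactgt
Egr1 and Egr3 had no window in the table used.

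**Figure D2:**
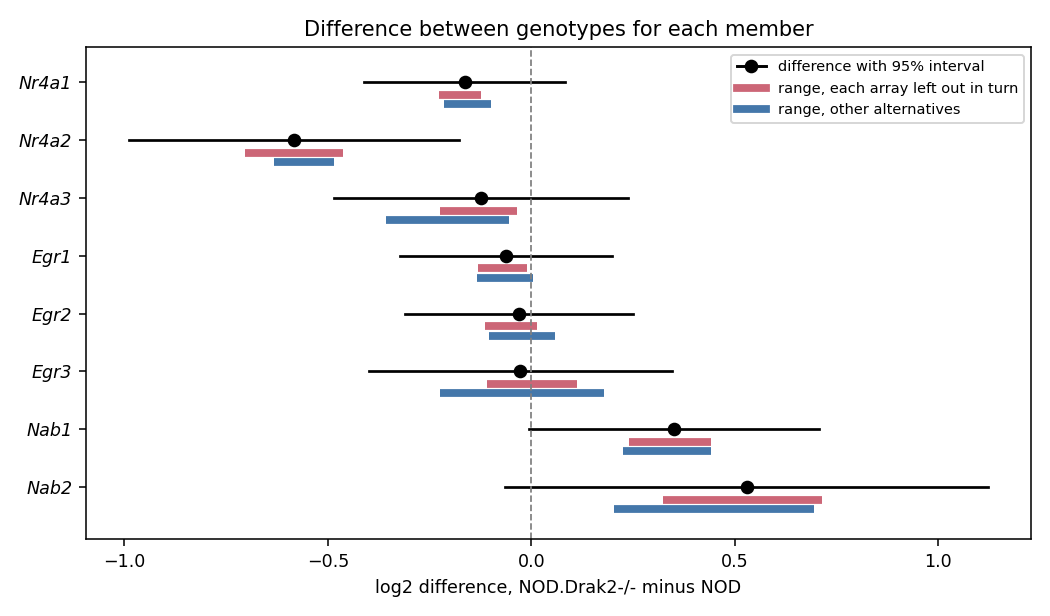
Log2 difference of each gene between genotypes with its 95% interval from limma (black), the range when each of 12 arrays was left out in turn (red) and the range under 13 other alternatives (blue). The interval of Nr4a2 lies below 0, those of the other 7 genes cross it, and the alternatives for Egr1, Egr2 and Egr3 fall on both sides.

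Both corepressor genes read higher in NOD.Drak2-/-, short of the threshold. Nab1 read 6.82, 7.44 and 7.73 in NOD and 7.28, 7.70 and 8.24 in NOD.Drak2-/- (lowest, median, highest). Of the NOD.Drak2-/- arrays 5 of 6 lay above the NOD mean and 3 of 6 above the highest NOD array. The means were 7.38 ± 0.32 and 7.73 ± 0.31 (SD, n = 6 per genotype), a difference of 0.35 (SE 0.17, 95% interval -0.00 to 0.71), or 1.28-fold. The adjusted p was 0.535 in limma and the exact two-sided permutation p was 0.0736. Nab2 read 6.03, 6.60 and 7.10 in NOD and 6.16, 7.08 and 8.12 in NOD.Drak2-/-. Here too 5 of 6 NOD.Drak2-/- arrays lay above the NOD mean and 3 of 6 above the highest NOD array. The means were 6.56 ± 0.42 and 7.09 ± 0.71 (SD, n = 6), a difference of 0.53 (95% interval -0.06 to 1.12, adjusted p = 0.566 in limma, two-sided exact permutation p = 0.145).

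The size of the Nab differences moved with a few arrays and with background. Nab2 spanned 2.09 log2 units over the 12 arrays, the widest range of the 8 genes, and NOD.Drak2-/- replicate 1 held the highest reading of both Nab genes (8.24 for Nab1 and 8.12 for Nab2). Without that array the differences were 0.25 for Nab1 and 0.32 for Nab2. Without replicates 1 and 2, Nab1 differed by 0.24 (adjusted p = 0.729 in limma) and Nab2 by 0.20 (adjusted p = 0.862 in limma). With the brightest background row of each array as a covariate the differences were 0.23 and 0.24, against -0.49 for Nr4a2 in the same fit. The last 2 settings were chosen once the values were known.

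Nab1 shares chromosome 1 with Stk17b, with 12 tested genes between them in the RefSeq order. Of these 12, 6 had a positive and 6 a negative difference, from -0.57 to 0.33 with a median of -0.02. None passed in limma, and 2 of 12 had an unadjusted p under 0.05, beside 9.43% of all genes, both negative (1700019D03Rik at -0.57 and Dnah7a at -0.51, named after their values were seen). Only 7 of the 12 had a mean above background, and Dnah7a was in the background range (5.26 in NOD and 4.76 in NOD.Drak2-/-). The genes between the loci did not share one sign. Whether sequence linked to the allele bears on Nab1 was not tested.

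The Nab1 window is shown because Egr sites recur in it. It held 3 matches to the Egr site, where 0.0365% of all windows held 3 or more, and 1 core of the cyclic AMP response element, all in capitals and with no overlap. The Egr sites lie at -141 to -133, -109 to -101 and -38 to -30 from the start. The window is also rich in G and C (81.7%, against a median of 52.7% over all windows), and an Egr site is made of these letters alone but for 1 T in one of its forms.
Nab1, chr1:52500399-52500698, - strand: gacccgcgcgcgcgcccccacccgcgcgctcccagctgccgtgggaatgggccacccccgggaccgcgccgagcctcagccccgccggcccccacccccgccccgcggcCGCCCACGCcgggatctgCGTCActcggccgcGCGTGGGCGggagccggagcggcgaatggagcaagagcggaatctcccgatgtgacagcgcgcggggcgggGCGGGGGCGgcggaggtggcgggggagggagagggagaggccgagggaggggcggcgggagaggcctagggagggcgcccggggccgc
The window of Nab2, an Egr target, had no match to any motif searched. A match is a stretch of letters, and these arrays did not measure binding.

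**Figure D3:**
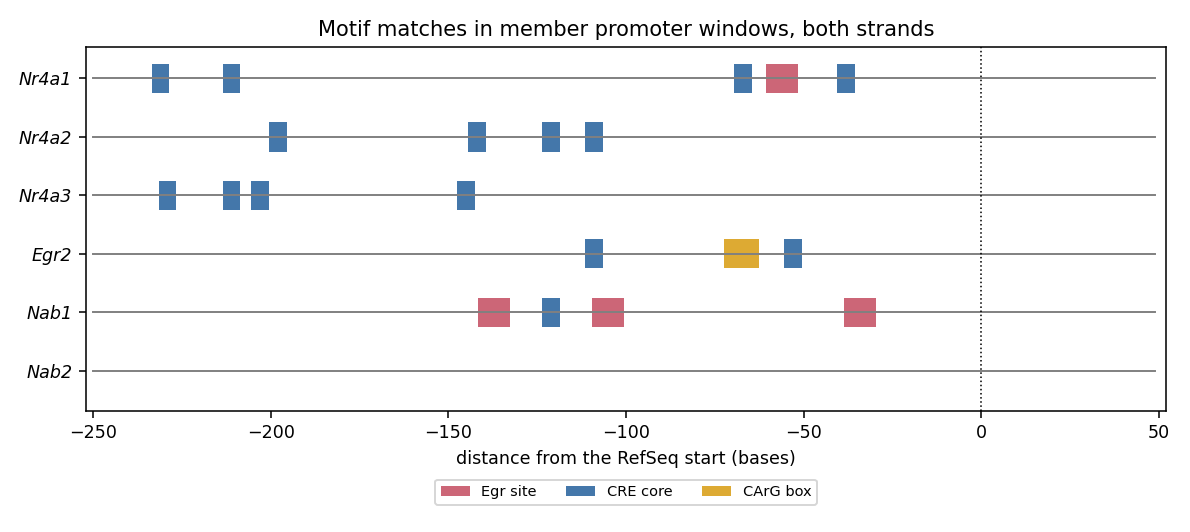
Matches to the Egr site, the core of the cyclic AMP response element and the CArG box on either strand of the RefSeq promoter windows of 6 members, by distance in bases from the start (dotted line). The cores recur 4 times in each Nr4a window, the Egr site 3 times in Nab1, and Nab2 has no match.

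Between mice of one genotype, the Nab genes varied together with Egr1 and Nr4a1. After removing genotype means, 28 pairs of members were correlated over the 12 arrays, and 5 pairs passed an adjusted p of 0.05 by both Pearson and Spearman correlation (100000 permutations). The share of all gene pairs that reach such values is not given here, so the count is not read as particular to the members. Nab1 and Nab2 had r = 0.87 (permutation adjusted p = 0.00448) and rho = 0.85 (adjusted p = 0.0113), with r = 0.91 within NOD and 0.90 within NOD.Drak2-/-. Egr1 and Nab1 had r = 0.85 (permutation adjusted p = 0.00448) and rho = 0.89 (adjusted p = 0.00784), with 0.77 and 0.92 within the genotypes. The other pairs were Nr4a1 with Egr1 (r = 0.81, permutation adjusted p = 0.0155, rho = 0.82, adjusted p = 0.0185), Egr1 with Nab2 (r = 0.76, permutation adjusted p = 0.0275, rho = 0.73, adjusted p = 0.047) and Nr4a1 with Nab1 (r = 0.75, permutation adjusted p = 0.0291, rho = 0.77, adjusted p = 0.0317). Within single genotypes these 3 pairs had r from 0.63 to 0.91. Nr4a1 with Nab2 passed by Pearson (r = 0.71, permutation adjusted p = 0.0442) and not by Spearman (rho = 0.69, adjusted p = 0.0596).

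The relations lost strength without the outermost arrays in part. Leaving out the 2 arrays farthest from the median of the first gene gave r = 0.84 for Nab1 with Nab2, 0.72 for Egr1 with Nab1, 0.64 for Nr4a1 with Egr1, 0.50 for Egr1 with Nab2, and 0.70 for Nr4a1 with Nab1. Nr4a2 did not share the pattern: its r with Nr4a1, Egr1, Nab1 and Nab2 lay between -0.53 and -0.41, none past the threshold. Egr2 had r of 0.02 with Nab2, 0.14 with Nab1 and 0.21 with Egr1. Within NOD these were 0.55, 0.44 and 0.81, and within NOD.Drak2-/- they were -0.22, -0.10 and -0.20.

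**Figure D4:**
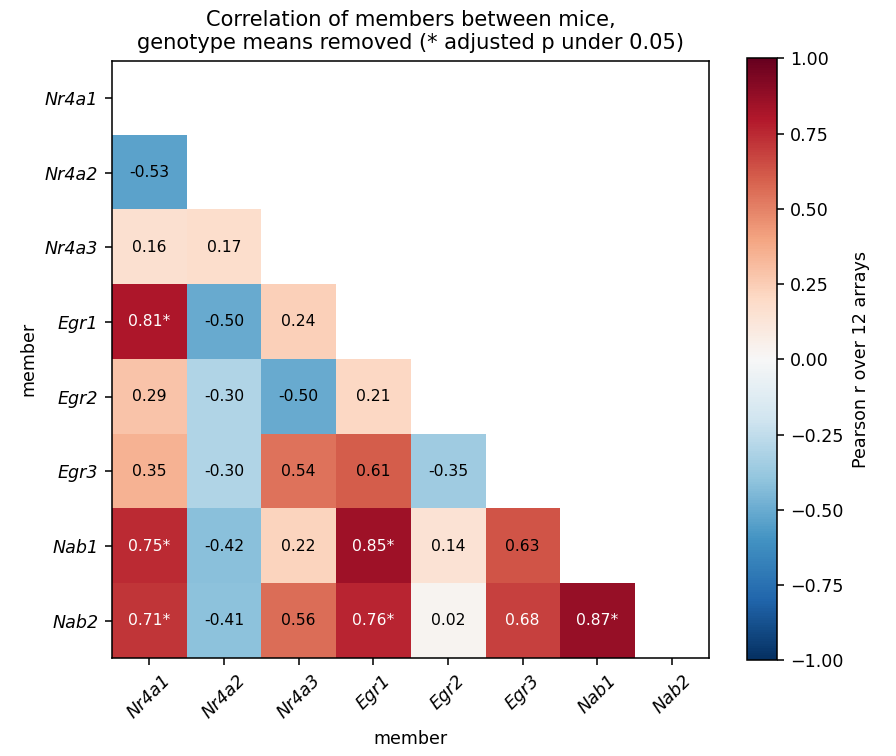
Pearson r of each pair of the 8 genes over 12 arrays after removing genotype means, with an asterisk where the permutation p adjusted over 28 pairs is under 0.05. The starred cells are the 6 pairs among Nr4a1, Egr1, Nab1 and Nab2, while the Nr4a2 row and column hold mostly negative values.

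Array background moved with several of the same genes. Of 64 relations between the 8 genes and 8 array measures (background, hybridization controls, array median and the means of 5 gene lists), 5 passed an adjusted p of 0.05 by Pearson correlation. The share of other genes that go with these measures is not given here. The brightest background row followed Egr3 (r = 0.81, permutation adjusted p = 0.0255, rho = 0.89, adjusted p = 0.0147; 0.80 without the 2 farthest arrays) and Nab2 (r = 0.80, permutation adjusted p = 0.0255, rho = 0.83, adjusted p = 0.0284; 0.88 without them). Within NOD these were 0.92 and 0.80, and within NOD.Drak2-/- 0.79 and 0.81. The mean of 29 other immediate early genes followed Egr3 (r = 0.82, permutation adjusted p = 0.0255, rho = 0.87, adjusted p = 0.0157, and 0.87 without the 2 farthest arrays). It also followed Nab2 by Pearson (r = 0.80, permutation adjusted p = 0.0255), not by Spearman (rho = 0.65, adjusted p = 0.121), and r was 0.49 without the 2 farthest arrays. The mean of 12 myeloid and dendritic markers, of which 2 were above background, followed Egr1 (r = 0.80, permutation adjusted p = 0.0255, rho = 0.82, adjusted p = 0.0294, and 0.74 without the 2 farthest arrays).

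With the background row removed from both genes, r was 0.78 for Nab1 with Nab2, 0.78 for Egr1 with Nab1, 0.79 for Nr4a1 with Egr1, 0.64 for Egr1 with Nab2 and 0.73 for Nr4a1 with Nab1. For Egr3, by contrast, r with Nab2 went from 0.68 to 0.10 and with Nab1 from 0.63 to 0.26. The myeloid and dendritic mean ran from 4.74 to 5.04 in NOD and from 4.76 to 5.25 in NOD.Drak2-/-, and its part in the Egr1 pairs was not tested.

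**Figure D5:**
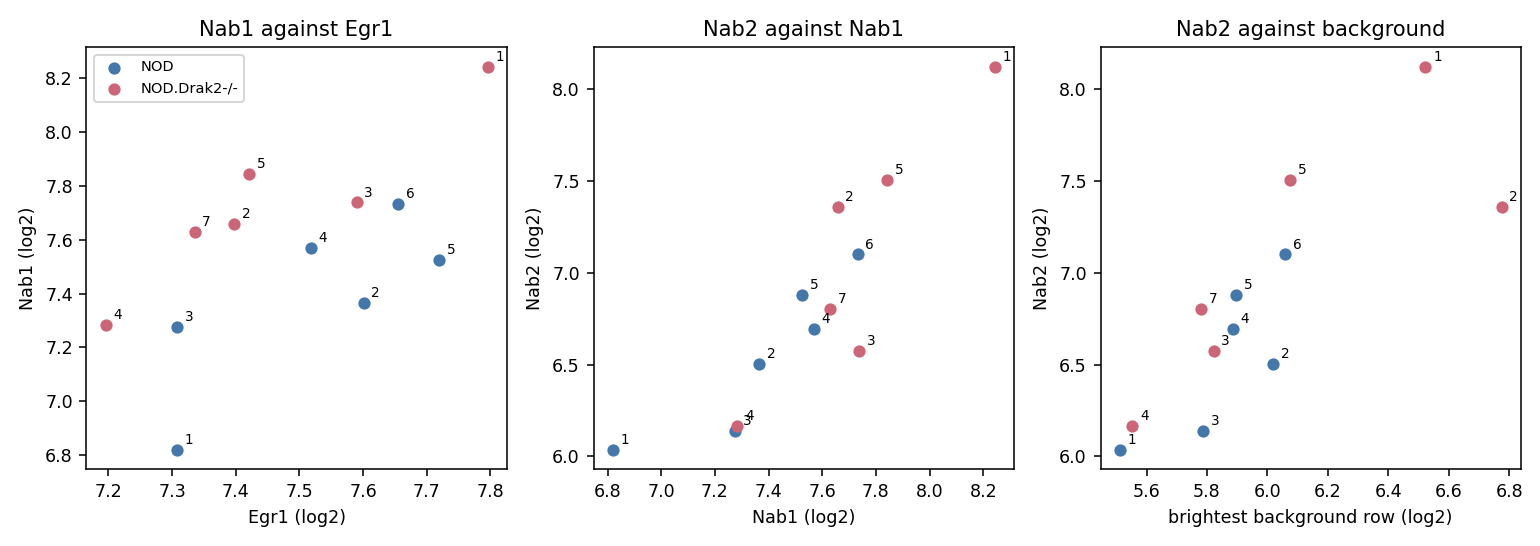
Log2 values of 12 arrays with replicate numbers, Nab1 against Egr1, Nab2 against Nab1, and Nab2 against the brightest background row of the same array. Points rise together in each panel, NOD.Drak2-/- replicate 1 is at the top of all 3, and in the first the NOD.Drak2-/- points tend to lie above NOD points of like Egr1.

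Genes whose variation between mice was most like that of the members were sought among 8120 genes above background, by Pearson r of deviations from the genotype means over 12 arrays, as a description. For the mean of Nr4a1, Egr1 and Egr2 these were Mfap1a (r = 0.94), Zfp3 (0.94), the T cell surface receptor gene Cd6 (0.94), Mfap1b (0.92), Tcp11l2 (0.91) and 4833439L19Rik (0.91). Mfap1a and Mfap1b are near-identical copies, so their rows may share signal. Within this target Egr2 had r of only 0.29 with Nr4a1 and 0.21 with Egr1 over the 12 arrays. For Nab1 they were Mcrs1 (r = 0.97), Sap30bp (0.96), H2-Oa (0.94), a modulator of peptide loading onto MHC class II, Tnrc18 (0.93), Spred2 (0.92), an inhibitor of the Ras to ERK pathway, and the Mediator kinase module gene Med13l (0.92). None of these 12 genes passed the test of genotype, with adjusted p-values from 0.527 to 0.907 in limma.

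No gene of the lists around the members passed the test of genotype. Of 34 genes that Egr or Nr4a factors are known to act on or with, all 34 had a row, 0 passed in limma in either direction, 17 differences were negative and 17 positive, and the median was 0.00. At an unadjusted p under 0.05 there were 0 positive and 2 negative, beside 3.74% and 5.69% of all genes. These 2 were the transcription factor gene Nfil3, from 8.53 to 7.91 (difference -0.61, SE 0.19, adjusted p = 0.469), and Nrgn, a calmodulin-binding protein gene, from 6.18 to 5.89 (-0.29, adjusted p = 0.508). The next was Tox, a transcription factor gene of chronically stimulated T cells, at 0.28 (adjusted p = 0.535), above the NOD mean in 6 of 6 arrays.

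Of 29 components of the ERK, serum response factor and calcium inputs, 23 had a row named here. In limma 0 passed, and at an unadjusted p under 0.05 there were 2 positive and 0 negative, beside 3.74% and 5.69% of all genes, with a median of 0.07. Elk4, a partner of serum response factor, differed by 0.21 (adjusted p = 0.523), Nfatc1, a calcium-driven transcription factor gene, by 0.45 (adjusted p = 0.527), and the kinase gene Prkd2 by 0.19 (adjusted p = 0.602).

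Of 29 further immediate early genes, all had a row and 0 passed in limma, with 19 negative and 10 positive differences and a median of -0.05. At an unadjusted p under 0.05 there were 5 of 29, beside 9.43% of all genes, with 3 negative (5.69% of all genes) and 2 positive (3.74%), and whether the list differs from other genes in this was not tested. The negative ones were Csrnp1, a nuclear factor gene, at -0.73 (adjusted p = 0.191), and the MAP kinase phosphatase genes Dusp4 at -0.49 (adjusted p = 0.393) and Dusp5 at -0.53 (adjusted p = 0.443). All 6 NOD.Drak2-/- arrays lay below the NOD mean for Csrnp1 and Dusp4, and 5 of 6 for Dusp5. The positive ones were the antiproliferative gene Btg2 at 0.36 (adjusted p = 0.47, above the NOD mean in 6 of 6 arrays) and the AP-1 gene Fos at 0.44 (adjusted p = 0.527, in 5 of 6), named after their values were seen. The mean of this list was highest in NOD.Drak2-/- replicates 1 and 2 within their genotype (8.48 and 8.35, the other 4 at 7.85 to 8.15) and ran from 8.11 to 8.37 in NOD. Of 14 heat shock genes 11 had a row and 0 passed, with a median of -0.01, Hsp90aa1 at -0.22 (adjusted p = 0.535), Dnajb4 at 0.37 (adjusted p = 0.578) and Hspa1b, in the background range, at -0.19 (adjusted p = 0.632). Their mean ran from 7.35 to 7.61 in NOD and from 7.38 to 7.65 in NOD.Drak2-/-.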

How the data were processed

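Arrays of 1 colour were measured for 12 mice, 6 per genotype. The values are log2 expression per transcript cluster in the authors' deposited table, and the submitters' processing notes name oligo and RMA, without versions or a genome build. Rows were named through the platform annotation (19572 rows with 1 symbol, 0 with several), the brightest row was kept per gene, and 19505 genes were tested with no filter on dim genes. All of these symbols were found in a RefSeq table of GRCm38.p6, used for names, order and promoter windows.

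The genotypes were compared with limma (version 3.58.1, R 4.3.3; lmFit and eBayes, no covariate), adjusted over all genes, and single members also by a two-sided exact permutation test over 924 regroupings, whose smallest possible p is 0.00216. The fit was tested on simulated data. No counts underlie array values, so precision depends on how many arrays there are.

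The members, lists and tests were chosen with earlier results of these data known. Genes named are the members, the 3 smallest p-values of each pathway list, the 6 genes most like 2 targets, and check genes. Of the other-cell lists only genes above background are named. Replicate numbers 1 to 5 occur in both genotypes, but same-numbered arrays did not deviate together, so no block was used. In bulk cells, fewer cells of a type and less RNA per cell cannot be told apart. Alternatives changed arrays, scaling, filters, rows, spread model and covariates.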

Additional observations from a re-analysis of the deposited data

How the results depend on the processing

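For the 8 genes, 0 passed under any of the 25 alternatives run, 23 of them planned. Nr4a1, Nr4a2 and Nr4a3 stayed negative and Nab1 and Nab2 positive in all of them, and Nr4a2 had an unadjusted p under 0.05 in each. Leaving out each array in turn gave -0.23 to -0.12 for Nr4a1, -0.70 to -0.46 for Nr4a2, -0.22 to -0.04 for Nr4a3, -0.13 to -0.01 for Egr1, -0.11 to 0.014 for Egr2, -0.11 to 0.11 for Egr3, 0.24 to 0.44 for Nab1 and 0.32 to 0.71 for Nab2. Reversed signs were found with median centring for Egr1 (0.0033), Egr2 (0.034) and Egr3 (0.039), with array weights for Egr2 (0.0057), without NOD.Drak2-/- replicates 1 and 2 for Egr2 (0.057), and for Egr3 with the replicate block (0.18) and with the mean of all rows of a gene (0.016). Median centring adds 0.066 to the difference of every gene. With the replicate block the difference comes from replicates 1 to 5, since 6 and 7 occur in 1 genotype each. It thus leaves out the lowest Egr3 array, NOD.Drak2-/- replicate 7 (6.36). The mean of all rows takes in the Egr3 row with a difference of 0.13. For the other settings the cause was not tested.

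Genes past the threshold over the whole array numbered 4. They were 0 with the replicate block, with a floor at background and in the ordinary fit, 1 with the B cell marker mean or the background row as a covariate, 2 with the heat shock mean as a covariate or without NOD.Drak2-/- replicates 1 and 2, and 1 to 2 when each array was left out. Same-numbered arrays of the 2 genotypes had deviations that correlated between -0.18 and 0.09 over genes, so no pairing by number was seen. This cannot exclude one, since 58.3% of the genes had a mean below background. With the replicate block 0 members passed. The median r over the 28 pairs of members was 0.23, and 0.10 to 0.38 when each array was left out. With 6 arrays a genotype, the intervals of the 8 genes reach 0.25 to 0.59 log2 units either side of the difference, and smaller differences are not resolved.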

Other observations

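Within NOD, Nr4a2 went with Nr4a3 (r = 0.82 over 6 arrays) and against Egr2 (r = -0.95). Within NOD.Drak2-/- the signs were opposite, at -0.51 and 0.62. Nr4a2 with Egr2 had the strongest r of the 28 pairs within NOD, and both pairs were picked after the values were seen. The difference between the genotypes in these relations was not tested, and neither pair passed over the 12 arrays (r = 0.17 and -0.30). In NOD the arrays high for Nr4a2 were replicates 1 and 4 (9.17 and 8.93), which were the lowest for Egr2 (9.02 and 9.03).

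Egr2 and Nr4a1 were the least variable of the 8 genes together with Egr1, with SDs within genotype of 0.22, 0.17 and 0.19, against 0.58 for Nab2. None of the 16 groups of 6 values (8 genes in 2 genotypes) held a single array that stood far outside the rest.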
